A study of Mus musculus with 16 samples.

Results

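The endothelial cell genes described here are Pecam1, Cdh5, Kdr, Flt1, Tek, Tie1, Emcn, Sox17, Vwf and Eng. They were taken as the probe sets whose single gene symbol in the array annotation is one of these 10 names. All 10 genes were measured, by 16 probe sets, among 18193 genes with a probe set of their own symbol. Transcript levels came from 16 B16-OVA tumors, 4 in each of 4 groups, on 1 array per tumor. The cells were B16-OVA, mouse melanoma cells carrying the model antigen ovalbumin, and they grew under the flank skin of male C57BL/6-Ly5.1 mice aged 6 to 12 weeks until day 18. Control mice received the vehicle MCT and control IgG. The CD40 group received vehicle and an agonist antibody against CD40, the MEKi group received the MEK inhibitor GDC-0623 at 30 mg/kg a day with control IgG, and the MEKi+CD40 group received both agents. Inhibitor or vehicle was given daily for about 2 weeks, and the antibody was injected on days 3, 5 and 7 of treatment and again 1 day before the tumors were taken. The melanoma cells are a transplanted line and the vessels are those of the host. The sample labels call the material whole tumor, while the study's methods speak of tumor pieces, so the share of tissue around each tumor is not known.

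Endothelial cells line blood vessels, and tumors recruit them by secreting vascular endothelial growth factor (VEGF). VEGF binds the receptor tyrosine kinases encoded by Kdr and Flt1, and Kdr passes the signal on largely through the MEK and ERK kinases, the cascade that GDC-0623 blocks. Angiopoietins bind the receptor encoded by Tek, which pairs with Tie1. Endothelial cells can also carry CD40, and its ligation on cultured endothelium is known to raise adhesion molecules for leukocytes. In bulk tumors, fewer endothelial cells and less RNA per endothelial cell cannot be told apart.

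None of the 16 probe sets passed the test in any comparison, and for each of the endothelial genes the tumors of any pair of groups overlapped. The test was limma with Benjamini-Hochberg adjustment over 45037 probe sets, and a probe set was called at an adjusted p under 0.05. In CD40 against control 0% of all probe sets were called, and 3857 had an unadjusted p under 0.05. In MEKi against control 0% were called, with 3110 under that unadjusted p. In MEKi+CD40 against control 0.00888% of all probe sets were called, in MEKi+CD40 against MEKi 1.15%, and in MEKi+CD40 against CD40 4.74%. The interaction asks whether the CD40 antibody acted differently with the inhibitor than without it, by subtracting the difference between CD40 and control from that between MEKi+CD40 and MEKi, and there 0% were called with 6424 at an unadjusted p under 0.05. Of the 10 endothelial genes, each by its brightest probe set, an unadjusted p under 0.05 was reached by Vwf in MEKi against control and by Sox17 in MEKi+CD40 against control and against MEKi. The p-values measure the spread between tumors, 4 in each group.

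Libraries of 4 tumors stood apart, and they bear on every result that follows. Transcripts of skeletal muscle, a list of 10 genes such as Acta1, Ckm and Myh4, lay on average 7.56 log2 units above the control mean in MEKi+CD40 tumor 1, 4.77 in MEKi+CD40 tumor 3 and 3.49 in CD40 tumor 3. The other 13 tumors lay between −0.06 and 0.99. The highest of these was MEKi tumor 2, with Myh1 at 7.38 against 3.05 to 3.35 in the control tumors. Its Acta1 was at 7.74 against 5.76 to 5.89, so it held some muscle transcripts as well. Below, MEKi+CD40 tumors 1 and 3 and CD40 tumor 3 are called the 3 tumors with muscle transcripts, and MEKi tumor 2 is not counted among them. The mean of the 7 fibroblast genes was also high in these 3 tumors, at 3.71, 2.25 and 2.66, and in MEKi tumor 3, at 2.82, where the muscle list was at −0.06. As for RNA quality, the 3′ probe set of Gapdh exceeded the 5′ one by 0.38 in MEKi+CD40 tumor 1 and by at most 0.08 in each of the other 15 tumors. For Actb the same gap was 0.91 in MEKi+CD40 tumor 1 and 0.21 to 0.44 in the other 15. The part of these gaps in that tumor's values was not tested. Melanoma transcripts such as Tyrp1 and Dct were near the top of the scale everywhere, and the mean of the 6 melanoma genes lay between −0.145 and 0.132 from the control mean.

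**Figure D1:**
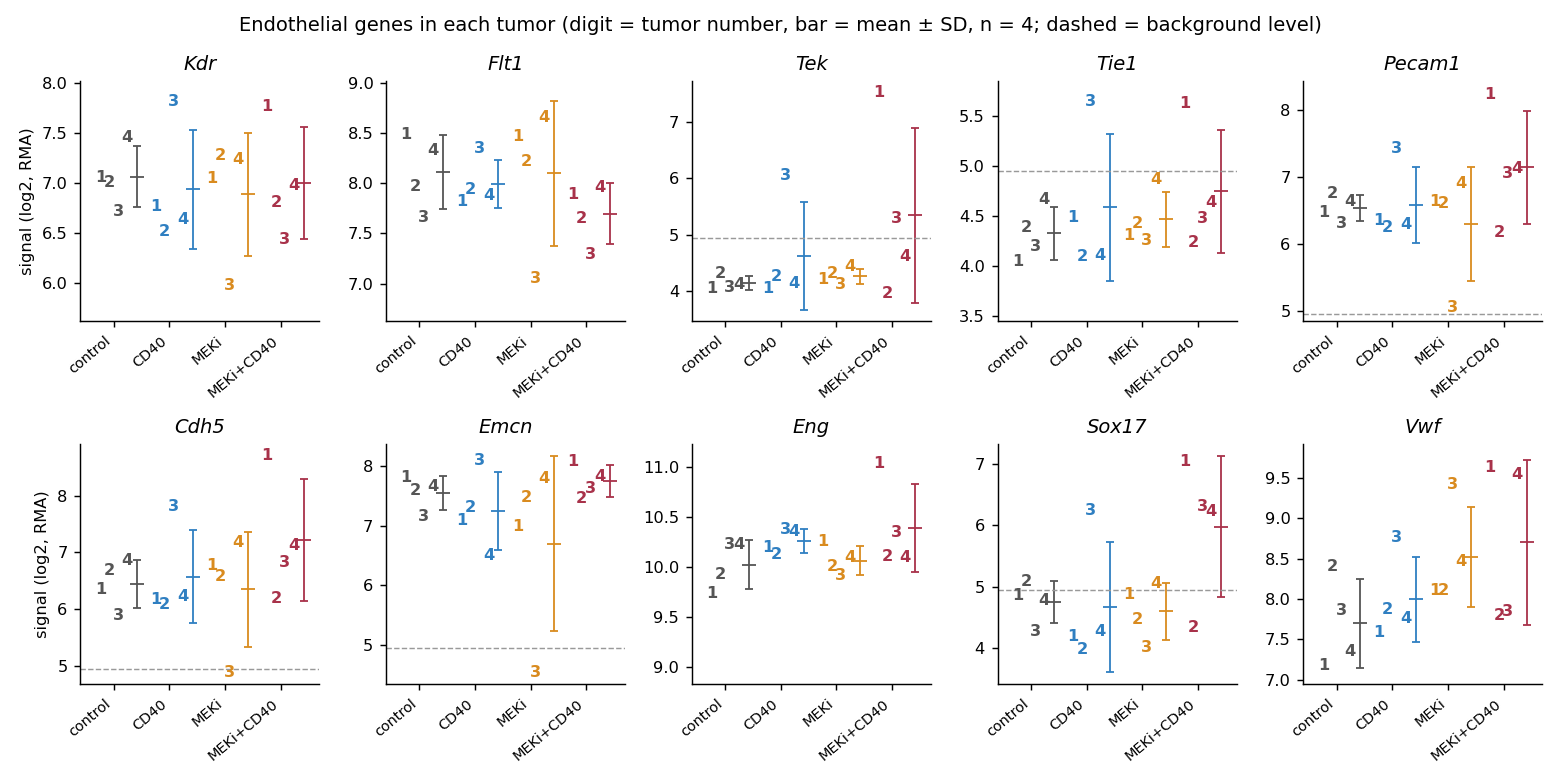
Log2 signal of the 10 endothelial genes, each by its brightest probe set, in the 16 tumors by group. Digits are tumor numbers, bars are the mean ± SD of 4 tumors, and the dashed line is the background level of 4.95. Tumor 3 of the CD40 group and tumor 1 of the MEKi+CD40 group are high in most panels, and tumor 3 of the MEKi group is low for Kdr, Flt1, Pecam1, Cdh5 and Emcn but high for Vwf.

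The VEGF receptors Kdr and Flt1 did not differ between the groups beyond the spread between tumors. Kdr, the main signalling receptor of VEGF on endothelium, read 7.06, 7.01, 6.72 and 7.46 in control tumors 1 to 4. It read 6.77, 6.52, 7.82 and 6.64 in the CD40 tumors, 7.05, 7.28, 5.98 and 7.24 in the MEKi tumors, and 7.77, 6.81, 6.44 and 6.98 in the MEKi+CD40 tumors. CD40 tumor 3 and MEKi+CD40 tumor 1 were the highest of the 16 and MEKi tumor 3 the lowest. The difference of Kdr between MEKi+CD40 and control was −0.06 log2 units (95% interval −0.69 to 0.57, adjusted p = 0.921), and between MEKi and control it was −0.18 (−0.81 to 0.46, adjusted p = 0.916). These intervals leave room for a difference in either direction.

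Flt1, a receptor that binds VEGF tightly and also occurs as a soluble decoy, was the gene with the lowest MEKi+CD40 mean relative to control. Its brightest probe set read 8.49, 7.97, 7.66 and 8.33 in the control tumors and 7.89, 7.65, 7.29 and 7.96 in the MEKi+CD40 tumors. The MEKi+CD40 values sat at the lower end of the control range or below it, and the difference was −0.41 log2 units (SE 0.21, adjusted p = 0.306). It read 7.82, 7.94, 8.35 and 7.88 in the CD40 tumors and 8.47, 8.22, 7.05 and 8.66 in the MEKi tumors, where tumor 3 alone lay below the range of the control tumors. The other 3 Flt1 probe sets did not all follow. Probe set 1419300_at read 7.97 in CD40 tumor 3 and 7.77 in MEKi+CD40 tumor 1, against 5.60 to 6.95 in the other 14 tumors, and its difference between MEKi+CD40 and control was 0.34 (SE 0.29, adjusted p = 0.531). Probe set 1454037_a_at read 6.09 and 5.69 in the same 2 tumors, inside its range of 5.29 to 6.70. Over the 16 tumors Pearson's r between these probe sets was 0.25, while between 1440926_at and 1451756_at it was 0.90. In MEKi+CD40 against control 1440926_at, at −0.305 (SE 0.32, adjusted p = 0.621), and 1454037_a_at, at −0.16 (SE 0.20, adjusted p = 0.691), had the direction of the brightest probe set. Probe set 1419300_at had the other direction. Which transcripts of Flt1 each probe set reads was not examined.

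**Figure D2:**
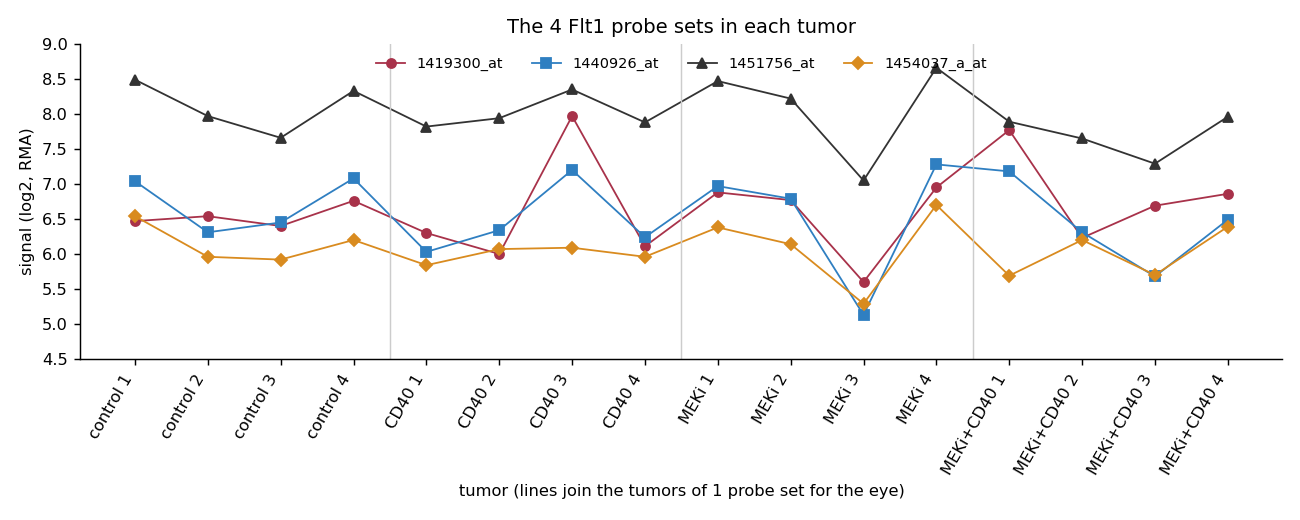
Log2 signal of the 4 Flt1 probe sets (marker shapes) in the 16 tumors, with grey lines between the groups. All 4 dip in MEKi tumor 3, and in CD40 tumor 3 and MEKi+CD40 tumor 1 1419300_at rises while 1454037_a_at does not.

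The angiopoietin receptor Tek and its partner Tie1 were mostly below the background level, which was set at 4.95 from olfactory receptor probe sets. Tek read 4.05, 4.32, 4.06 and 4.12 in the control tumors, 4.04, 4.26, 6.05 and 4.14 in the CD40 tumors, and 4.21, 4.31, 4.12 and 4.43 in the MEKi tumors. In the MEKi+CD40 tumors it read 7.52, 3.95, 5.29 and 4.61. The 3 tumors above background were the 3 with the most muscle transcripts. MEKi tumor 2, which held fewer of them, had Tek below background at 4.31. The part of that tissue in Tek was not tested. The MEKi+CD40 mean of 5.34 lay 1.32-fold above the background level, and all control tumors were below that level. MEKi+CD40 tumors 2 and 4 were below it as well, so the fold from control has no firm lower bound. By limma the measured difference from control was 1.21 log2 units (adjusted p = 0.34). Its interval of −0.30 to 2.71 leaves room for no difference. Without the 3 tumors with muscle transcripts the difference was 0.14. Tie1 was above background in 2 tumors, CD40 tumor 3 at 5.65 and MEKi+CD40 tumor 1 at 5.63, and lay between 4.05 and 4.87 in the other 14. Its mean was below background in all 4 groups, so no fold is given.

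The promoters of these genes can be compared apart from the array signals. RefSeq promoter sequences on GRCm38.p6 were found for 6 of the 10 genes, namely Kdr, Flt1, Tek, Tie1, Emcn and Eng, and 250 bases before the start of transcription were searched. Endothelial genes are known to be driven by ETS factors, which bind a GGAA core. The core alone occurred on either strand in all 6 windows, as in 93.4% of 32851 promoters of the same length, and so does not set them apart. The longer form AGGAAG, in which that core lies, was found on either strand in 4 of the 6 windows, Flt1, Tie1, Emcn and Eng, and in 29.5% of all promoters. The windows of Flt1, Tie1 and Kdr are shown because they hold the motif 2 times, 1 time and not at all, with the motif or its reverse complement in capitals, written 5′ to 3′ along the gene's strand. Flt1 lies at chr5:147726012-147726261 (minus strand), Tie1 at chr4:118489850-118490099 (minus strand) and Kdr at chr5:75978456-75978705 (minus strand). A match of letters is not a bound site.
Flt1: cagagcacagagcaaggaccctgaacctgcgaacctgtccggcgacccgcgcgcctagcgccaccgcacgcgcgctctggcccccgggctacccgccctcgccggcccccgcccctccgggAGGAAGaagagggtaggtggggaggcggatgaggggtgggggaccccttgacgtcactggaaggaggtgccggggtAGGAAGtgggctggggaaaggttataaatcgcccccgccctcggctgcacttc
Tie1: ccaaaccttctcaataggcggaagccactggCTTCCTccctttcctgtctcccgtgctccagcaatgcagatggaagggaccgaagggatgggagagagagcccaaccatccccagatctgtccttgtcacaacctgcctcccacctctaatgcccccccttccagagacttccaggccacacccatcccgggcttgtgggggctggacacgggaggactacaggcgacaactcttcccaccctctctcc
Kdr: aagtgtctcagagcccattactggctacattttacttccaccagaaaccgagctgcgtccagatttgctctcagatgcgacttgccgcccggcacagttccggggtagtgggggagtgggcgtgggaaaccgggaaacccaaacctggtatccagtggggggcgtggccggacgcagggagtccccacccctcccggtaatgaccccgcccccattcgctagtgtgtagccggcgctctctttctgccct

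The adhesion molecules Pecam1 and Cdh5 followed each other closely from tumor to tumor. Pecam1, which joins endothelial cells to each other and to leukocytes, read 6.47, 6.76, 6.31 and 6.63 in the control tumors and 8.24, 6.17, 7.06 and 7.13 in the MEKi+CD40 tumors. Tumors 1, 3 and 4 of the MEKi+CD40 group lay above all control tumors and tumor 2 lay below them, so the groups overlapped. The difference was 0.61 log2 units (SE 0.37, adjusted p = 0.393). Pecam1 read 6.35, 6.25, 7.43 and 6.29 in the CD40 tumors and 6.64, 6.61, 5.04 and 6.90 in the MEKi tumors. Each of these groups had 1 tumor far from the other 3, high in the CD40 group and low in the MEKi group.

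Cdh5 encodes VE-cadherin, the cadherin of endothelial junctions. It read 6.35, 6.69, 5.89 and 6.86 in the control tumors, 6.18, 6.09, 7.80 and 6.22 in the CD40 tumors, 6.77, 6.58, 4.89 and 7.18 in the MEKi tumors, and 8.71, 6.20, 6.82 and 7.13 in the MEKi+CD40 tumors. The order of the tumors was nearly that of Pecam1, with Pearson's r of 0.98 and Spearman's rho of 0.93 over 16 tumors. Both had a permutation p of 1e-05, the smallest that 100000 permutations can give, and adjusted values of 0.000112 and 0.000225 over the 45 pairs of endothelial genes. Without the 2 tumors farthest from the median of the endothelial genes, CD40 tumor 3 and MEKi+CD40 tumor 1, r was 0.95. The difference of Cdh5 between MEKi+CD40 and control was 0.77 log2 units (SE 0.49, adjusted p = 0.411). Its second probe set, 1422047_at, stayed below background in all 16 tumors.

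Emcn, a sialomucin of capillaries and veins that keeps leukocytes from adhering, lay furthest below its control mean in a single tumor. It read 7.81, 7.59, 7.15 and 7.65 in the control tumors, 7.09, 7.30, 8.09 and 6.51 in the CD40 tumors, 6.99, 7.48, 4.55 and 7.79 in the MEKi tumors, and 8.08, 7.45, 7.63 and 7.83 in the MEKi+CD40 tumors. MEKi tumor 3 was below background, whereas the MEKi+CD40 tumors spanned a narrow range. The difference between MEKi and control was −0.85 log2 units (SE 0.60, adjusted p = 0.809), and the interaction was 1.35 (SE 0.75, adjusted p = 0.457). MEKi tumor 3 was the tumor with fibroblast transcripts but no muscle transcripts, and its Lyve1, a receptor of lymphatic vessels and macrophages, was at 5.94 there and below background in the control tumors. Lyve1 was also above background in MEKi+CD40 tumor 1 and CD40 tumor 3, at 6.82 and 5.26, where Emcn was not low. The part of such tissue in the Emcn value was not tested. The Emcn promoter window, chr3:137340828-137341077 on GRCm38.p6 (plus strand), holds AGGAAG once on each strand, in capitals, and is shown because of that single low tumor.
Emcn: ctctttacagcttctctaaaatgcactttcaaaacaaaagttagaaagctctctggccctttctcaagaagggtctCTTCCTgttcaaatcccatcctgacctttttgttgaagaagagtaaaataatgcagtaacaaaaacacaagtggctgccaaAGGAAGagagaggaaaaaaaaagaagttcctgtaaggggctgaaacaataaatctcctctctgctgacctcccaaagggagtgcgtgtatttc

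Eng encodes endoglin, a coreceptor for BMP9 and TGF-beta, and had the narrowest range of the 10 over the 16 tumors. It read 9.73, 9.92, 10.22 and 10.22 in the control tumors, 10.19, 10.12, 10.37 and 10.35 in the CD40 tumors, 10.25, 10.00, 9.91 and 10.09 in the MEKi tumors, and 11.03, 10.10, 10.34 and 10.09 in the MEKi+CD40 tumors. MEKi+CD40 tumor 1 was the only tumor above 10.37. In CD40 against control the difference was 0.24 log2 units (95% interval −0.05 to 0.52, adjusted p = 0.638), and in MEKi against control it was 0.04 (−0.25 to 0.33, adjusted p = 0.963). Both intervals lie well within 1 log2 unit of 0. The second Eng probe set, 1432176_a_at, ranged from 8.98 to 9.57. Eng is not restricted to endothelium, since macrophages and stromal cells carry it as well.

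Sox17, a transcription factor of arterial endothelium, was at or below background in most tumors, with group means of 4.75 (control), 4.67 (CD40) and 4.60 (MEKi) below the background of 4.95, and 5.98 in MEKi+CD40. Differences from the first 3 groups are therefore of limited accuracy in size. Its brighter probe set read 4.86, 5.08, 4.27 and 4.77 in the control tumors, 4.19, 3.98, 6.25 and 4.27 in the CD40 tumors, 4.87, 4.47, 4.01 and 5.05 in the MEKi tumors, and 7.04, 4.34, 6.31 and 6.23 in the MEKi+CD40 tumors. Outside the MEKi+CD40 group CD40 tumor 3 alone exceeded 5.08, and within it 3 of 4 tumors did. By limma the difference was 1.24 log2 units from control (SE 0.51, adjusted p = 0.21), 1.38 from MEKi (SE 0.53, adjusted p = 0.186) and 1.31 from CD40 (SE 0.67, adjusted p = 0.308). The second probe set, 1421657_a_at, read 5.83, 4.56, 5.58 and 5.34 in the MEKi+CD40 tumors and 4.80, 4.77, 4.48 and 4.87 in the control tumors, with a difference of 0.60 (SE 0.25, adjusted p = 0.216). Without MEKi+CD40 tumor 2, the one low tumor, the difference from control was 1.78 with an adjusted p of 0.0346, and that from MEKi was 1.93 with an adjusted p of 0.0378. That refit drops the tumor with the lowest Sox17 of its group. In it 2327 of 45037 probe sets were called against control and 1454 against MEKi. No other refit called a Sox17 probe set. Without the 3 tumors with muscle transcripts, 2 of which are in this group, the difference from control was 0.54 and the adjusted p 0.624. MEKi+CD40 tumor 4 held no muscle transcripts, at −0.01 on that list, and had Sox17 at 6.23. The part of muscle tissue in tumors 1 and 3 was not tested.

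Vwf, the carrier of factor VIII that endothelial cells store and release to bind platelets, had a different order of tumors from most of the other endothelial genes. It read 7.18, 8.41, 7.86 and 7.35 in the control tumors, 7.58, 7.87, 8.77 and 7.76 in the CD40 tumors, 8.10, 8.11, 9.42 and 8.46 in the MEKi tumors, and 9.63, 7.79, 7.84 and 9.55 in the MEKi+CD40 tumors. MEKi tumor 3, lowest of the 16 for Kdr, Flt1, Pecam1, Cdh5 and Emcn, was the third highest for Vwf. All 4 MEKi tumors lay above 3 of the 4 control tumors, and by limma the difference was 0.82 log2 units (95% interval 0.06 to 1.59, adjusted p = 0.698). It was 0.52 without MEKi tumor 3. In MEKi+CD40 against control the difference was 1.00 (SE 0.50, adjusted p = 0.292), carried by tumors 1 and 4. Of the 7 measured genes of von Willebrand factor storage and platelets, 2 were above all control tumors in MEKi tumor 3, namely the platelet chemokine genes Pf4, at 10.43, and Ppbp, at 7.92. The platelet receptor genes Itga2b, at 7.17, Gp1bb, at 5.57, and Gp9, at 5.71, were within the control range in that tumor. Selp, at 4.65, and Rab27a, at 10.76, which act in granule release and adhesion, were below all control tumors. Pf4 was higher still in CD40 tumor 3, at 11.34, and in MEKi+CD40 tumor 1, at 11.09. The macrophage list was at 2.74 and 2.29 in these 2 tumors and at 0.05 in MEKi tumor 3. Which cells the transcripts of this list came from was not tested.

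**Figure D3:**
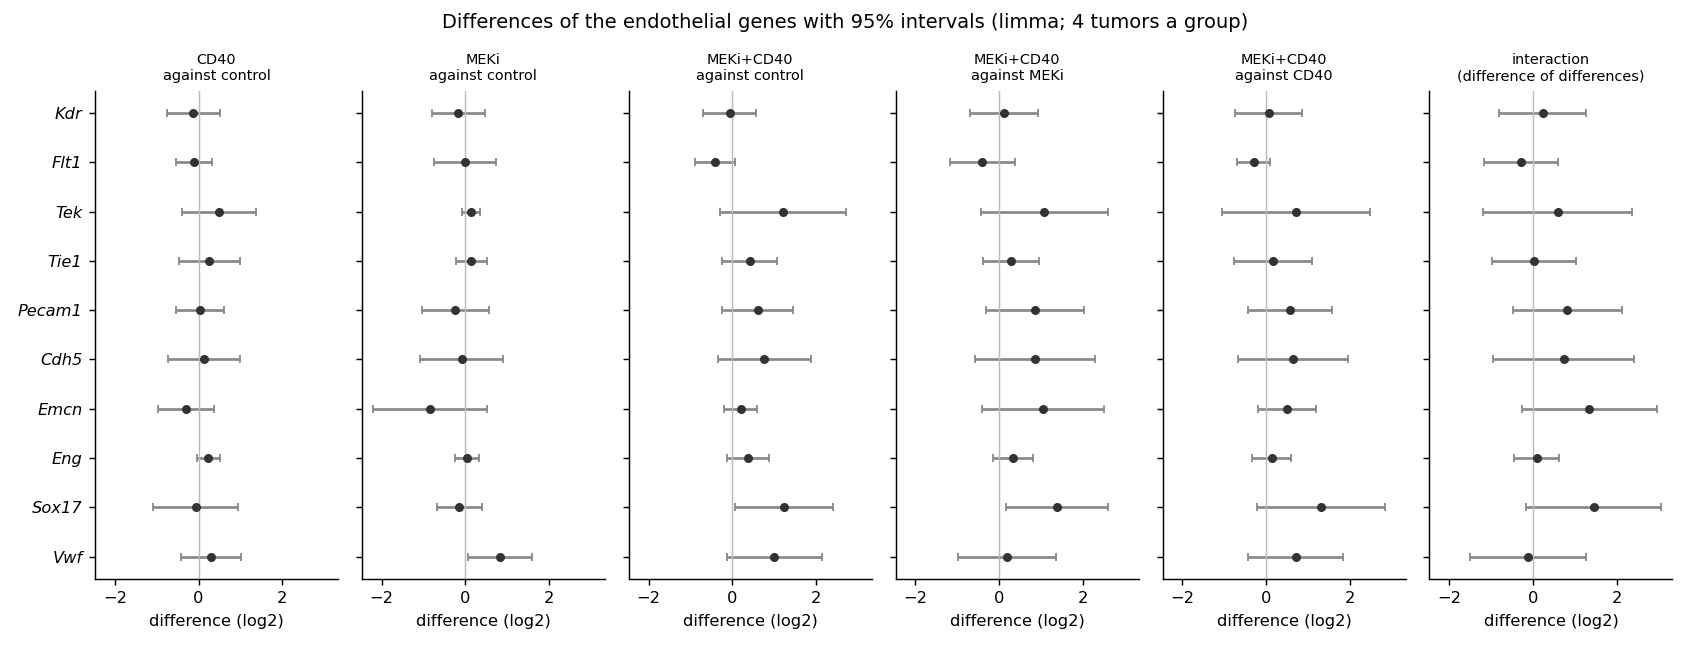
Differences of the 10 endothelial genes in log2 units, each by its brightest probe set, in the 5 comparisons of a pair of groups and for the interaction, with 95% intervals from limma and 4 tumors a group; Tek, Tie1 and Sox17 are below background in most tumors. Almost all intervals cross 0, apart from Vwf in MEKi against control and Sox17 in MEKi+CD40 against control and against MEKi.

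The median difference of the endothelial genes was positive in each comparison of MEKi+CD40, and much of it came from few tumors. In MEKi+CD40 against control 8 of 10 genes were positive, the exceptions being Kdr and Flt1, with a median of 0.51 log2 units beside 0.01 over all probe sets. Against MEKi 9 of 10 were positive with a median of 0.59 beside −0.02, and against CD40 9 of 10 with a median of 0.54 beside 0.02. These 3 comparisons share the MEKi+CD40 tumors and are not independent. Without MEKi+CD40 tumor 1 the 3 medians were 0.20, 0.23 and 0.07, and without the 3 tumors with muscle transcripts 0.11, 0.09 and 0.30. In CD40 against control the median was 0.08 and 6 of 10 genes were positive, and without CD40 tumor 3 it was −0.24. In MEKi against control it was −0.05 with 4 of 10 positive, and without MEKi tumor 3 it was 0.18. The interaction had a median of 0.41 with 8 of 10 positive, and −0.07 without MEKi+CD40 tumor 1.

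**Figure D4:**
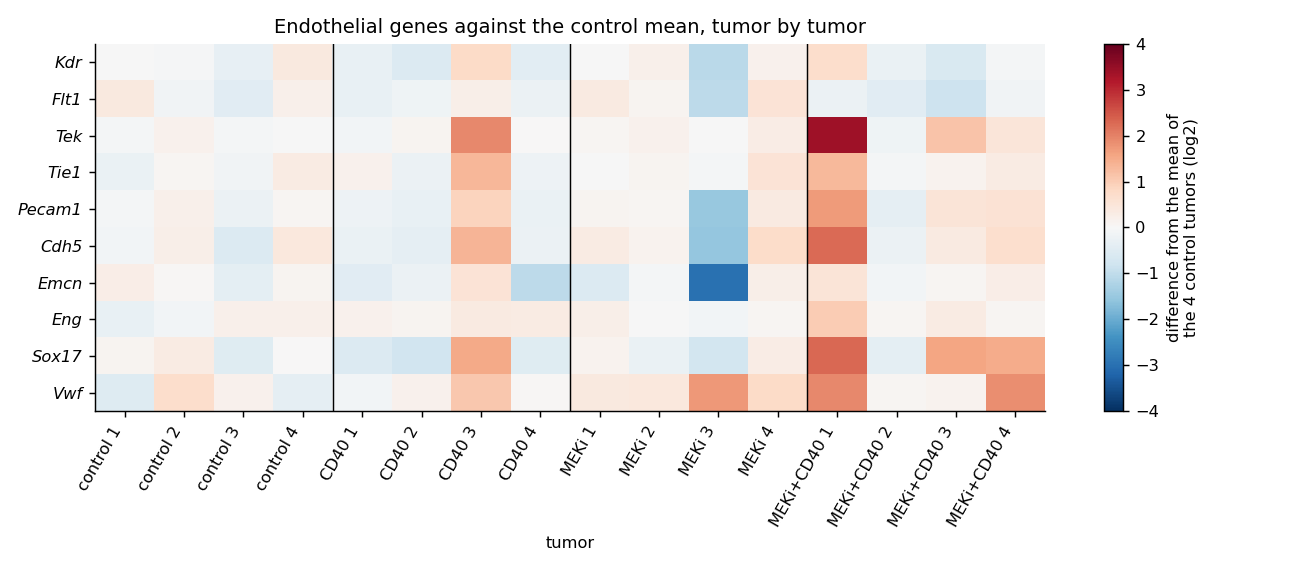
Difference of each endothelial gene (rows) from the mean of the 4 control tumors, in log2 units, for the 16 tumors (columns, black lines between groups), with red for higher and blue for lower. CD40 tumor 3 and MEKi+CD40 tumor 1 are red in nearly every row, and MEKi tumor 3 is blue for most genes and red for Vwf.

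Tumor by tumor, most of the endothelial genes were high or low together. The mean of the 10 genes lay 1.49 log2 units above the control mean in MEKi+CD40 tumor 1 and 0.99 above it in CD40 tumor 3. In MEKi tumor 3 it was −0.74, while the remaining 13 tumors spanned −0.25 to 0.55. MEKi+CD40 tumor 1 had the highest value of 6 of the 10 genes and CD40 tumor 3 of 3, while MEKi tumor 3 had the lowest value of 5. The median Pearson's r over the 45 pairs was 0.59 (Spearman's rho 0.54), and 0.30 without CD40 tumor 3 and MEKi+CD40 tumor 1. By gene, the median r with the other 9 was highest for Cdh5 at 0.82 and Tek at 0.81, and lowest for Flt1 at 0.24 and Vwf at 0.35. Without the same 2 tumors it was 0.65 for Cdh5, 0.30 for Tek, which was below background in 13 of 16 tumors, 0.28 for Flt1 and −0.14 for Vwf. All pairs come from the same 16 arrays, and these values are descriptions.

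Genes outside the list that were most like it belonged partly to endothelium. Over 16 tumors, 12663 genes above background were compared with the mean of the 10 standardized endothelial genes. The 8 highest by Pearson's r were Sox18 (0.99), an endothelial transcription factor related to Sox17, Tmem88 (0.97), Tmem47 (0.97), Rflnb (0.97), Ptp4a3 (0.95), Adamts9 (0.95), Id1 (0.95), a target of BMP signalling, and Kitl (0.95), the ligand of Kit. Sox18 followed the pattern with r of 0.97 also without CD40 tumor 3 and MEKi+CD40 tumor 1. It read 8.30 in MEKi+CD40 tumor 1, 7.75 in CD40 tumor 3 and 5.50 in MEKi tumor 3, against 6.18 to 6.73 in the control tumors.

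Other genes of endothelium had much the same values by tumor. Of 25 further endothelial genes, such as Cldn5, Esam and Robo4, 24 were positive in MEKi+CD40 against control with a median of 0.57 log2 units, beside 0.01 over all probe sets. The median was 0.26 without MEKi+CD40 tumor 1 and 0.16 without the 3 tumors with muscle transcripts, with 21 positive in each case. The mean of these 25 genes was 1.48 in MEKi+CD40 tumor 1, 0.89 in CD40 tumor 3 and −0.84 in MEKi tumor 3, close to the values of the 10. One of their 47 probe sets was called, that of Icam2, in MEKi+CD40 against CD40, or 2.13% beside the 4.74% over all probe sets. Icam2, an adhesion molecule of endothelium and leukocytes, read 9.48, 9.36, 9.11 and 9.09 in the CD40 tumors, 8.92, 8.58, 8.71 and 8.64 in the MEKi+CD40 tumors, and 8.50, 8.59, 8.69 and 7.94 in the control tumors. It was lower in MEKi+CD40 than in CD40, by −0.55 log2 units (SE 0.12, adjusted p = 0.0429), a call lost in 11 of 15 alternative fits (adjusted p = 0.284 with all 16 arrays in 1 fit). All 4 CD40 tumors were above all control and MEKi+CD40 tumors, with a difference of 0.83 from control (SE 0.17, adjusted p = 0.374). The share of all probe sets with such a separation was not counted. Nos3, the nitric oxide synthase of endothelium, came close to the threshold, with 7.49, 7.16, 7.18 and 7.47 in the MEKi+CD40 tumors against at most 7.02 in the CD40 tumors (difference 0.74, SE 0.17, adjusted p = 0.0511). Beside Icam2 stood the pan-leukocyte transcripts, their mean lying between 0.58 and 2.72 above the control mean in the CD40 tumors. Control tumors 3 and 4, at 0.92 and 0.65, lay within that range, so these transcripts did not separate the groups. The part of leukocytes in Icam2 was not tested.

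Some adhesion molecules that activated endothelium shows to leukocytes were higher in every CD40 tumor than in every control tumor. These were Icam1 and Icam2, and no gene of this list passed the test in that comparison. Vcam1 was so only by a dimmer probe set. Its brightest probe set read 8.84, 8.38, 10.24 and 7.95 in the CD40 tumors. In the control tumors it read 5.91, 5.98, 7.68 and 8.46, so the groups overlapped. Selp and Ackr1 overlapped as well. The share of all probe sets that separate the same tumors was not counted. In CD40 against control 3857 of 45037 probe sets had an unadjusted p under 0.05 by limma. Icam1 read 7.66, 8.17, 9.90 and 7.15 in the CD40 tumors and 5.34, 5.44, 6.88 and 6.74 in the control tumors. The difference was 2.12 log2 units (SE 0.59, adjusted p = 0.506). By its brightest probe set Vcam1 read 3.42 in MEKi tumor 2 and 10.24 in CD40 tumor 3, the tumors with the lowest and the highest macrophage list. Sele and Madcam1, adhesion molecules made by endothelium, stayed below background in all 16 tumors. Of the 7 genes of this list, Icam2 alone was called, in the comparison given above. That was 9.09% of the 11 probe sets of the list, beside 4.74% over all probe sets. Macrophages and other leukocytes also express Icam1 and Vcam1, and their part in these values was not tested.

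Of the growth factors and partners around the endothelial receptors, few passed the test. Among 8 genes of VEGF ligands and coreceptors the probe set of Flt4, the VEGF-C receptor of lymphatic and some blood vessels, was higher in MEKi+CD40 than in CD40, by 0.69 log2 units (SE 0.14, adjusted p = 0.0385). This was 1 of the 20 probe sets of the list, or 5%, beside 4.74% over all probe sets, and the call was lost in 10 of 15 alternative fits (adjusted p = 0.0748 with all 16 arrays in 1 fit). Flt4 read 8.87, 8.86, 8.66 and 8.59 in the MEKi+CD40 tumors and 8.37, 7.71, 8.07 and 8.08 in the CD40 tumors, with no overlap. The share of all probe sets without overlap was not counted. Against control the difference was 0.74 (SE 0.16, adjusted p = 0.0553). The lymphatic genes Prox1 and Mmrn1 were below background in all 16 tumors. Vegfc, a ligand of Flt4, was 0.41 log2 units above control in MEKi (SE 0.08, adjusted p = 0.57), and Vegfa ranged from 10.34 to 11.74 over all tumors, highest in MEKi tumor 3. None of the 6 genes of angiopoietins and TIE partners was called in any comparison. Angpt2, a ligand of Tek stored by endothelium, ranged from 7.83 to 8.98.

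In the endoglin and BMP9 list of 13 genes none was called. Tgfbr2, a receptor of TGF-beta, came closest, with 11.41, 10.31, 10.99 and 10.42 in the MEKi+CD40 tumors against 9.19, 9.94, 9.76 and 9.54 in the control tumors. The groups did not overlap, and the share of all probe sets without overlap was not counted. The difference was 1.18 log2 units (SE 0.26, adjusted p = 0.0563). By limma 9559 of 45037 probe sets had an unadjusted p under 0.05 in this comparison. The highest Tgfbr2 values were in MEKi+CD40 tumors 1 and 3, which held muscle and fibroblast transcripts. The part of that tissue in Tgfbr2 was not tested. Of 15 genes of Notch signalling and arterial identity, 1 probe set of the Notch ligand gene Jag1 was lower in MEKi+CD40 than in MEKi (adjusted p = 0.0496) and than in CD40 (adjusted p = 0.0305). This was 1 of the 26 probe sets of the list, or 3.85%, beside 1.15% over all probe sets against MEKi and 4.74% against CD40. The Jag1 probe set is the subject of the values that follow. It read 4.94, 4.75, 4.77 and 4.67 in the MEKi+CD40 tumors, all below background, against 5.71 to 6.06 in the MEKi tumors. Set against the background level, it was at least 1.87-fold lower than in MEKi and at least 1.65-fold lower than in CD40. The first call was lost in 8 and the second in 6 of 15 alternative fits. The brightest Jag1 probe set read 8.38, 7.11, 6.70 and 7.01 in the MEKi+CD40 tumors against 8.05 to 8.53 in the MEKi tumors, so 3 of 4 tumors followed and tumor 1 did not. Jag1 is expressed by many cells besides endothelium.

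None of the 10 genes of sprouting endothelial tip cells was called, and in MEKi+CD40 tumor 3 they went different ways. Esm1, a tip cell gene induced by VEGF, was at 4.45 in MEKi+CD40 tumor 3 against 6.37 to 8.94 in the other 15 tumors. Igfbp3 was at 6.92 there against 8.47 to 10.99, and Kcne3 at 3.83 against 5.37 to 7.79. In that tumor Rcan1, at 9.28, was above the highest control value of 8.94. Adamts1, at 11.31, and Col4a2, at 9.50, were only just above their highest control values of 11.29 and 9.47. The other 4 genes were within the control range. In the same tumor Kdr, at 6.44, and Flt1, at 7.29, were the second lowest of the 16, while Pecam1, Tek and Sox17 were above all control tumors. None of the 7 measured genes of the von Willebrand factor and platelet list was called.

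None of the 10 pericyte and smooth muscle genes was called in any comparison. Their mean was 1.69 log2 units above the control mean in MEKi+CD40 tumor 1, 0.41 in CD40 tumor 3, −0.20 in MEKi+CD40 tumor 3 and −0.88 in MEKi tumor 3. Endothelial and pericyte genes were both high in the first and both low in the last, where fibroblast genes were high. The 9 macrophage genes ranged from −2.77 in MEKi tumor 2 to 2.74 in CD40 tumor 3. No probe set of the macrophage, fibroblast, skeletal muscle, lymphatic (apart from Flt4) or melanoma lists was called, and of the 6 pan-leukocyte genes 1 probe set of Lcp1 was lower in MEKi+CD40 than in CD40, by −1.17 (SE 0.22, adjusted p = 0.0333), a call lost in 6 of 15 alternative fits. Lcp1 was 6.25% of the 16 pan-leukocyte probe sets and Flt4 8.33% of the 12 lymphatic ones, beside 4.74% over all probe sets. All 4 tumors that stood apart in the endothelial genes or in muscle were high in fibroblast genes. MEKi tumor 2, with a smaller muscle signal, was at −0.66 in fibroblast genes. The part of surrounding tissue in the endothelial values was not tested.

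**Figure D5:**
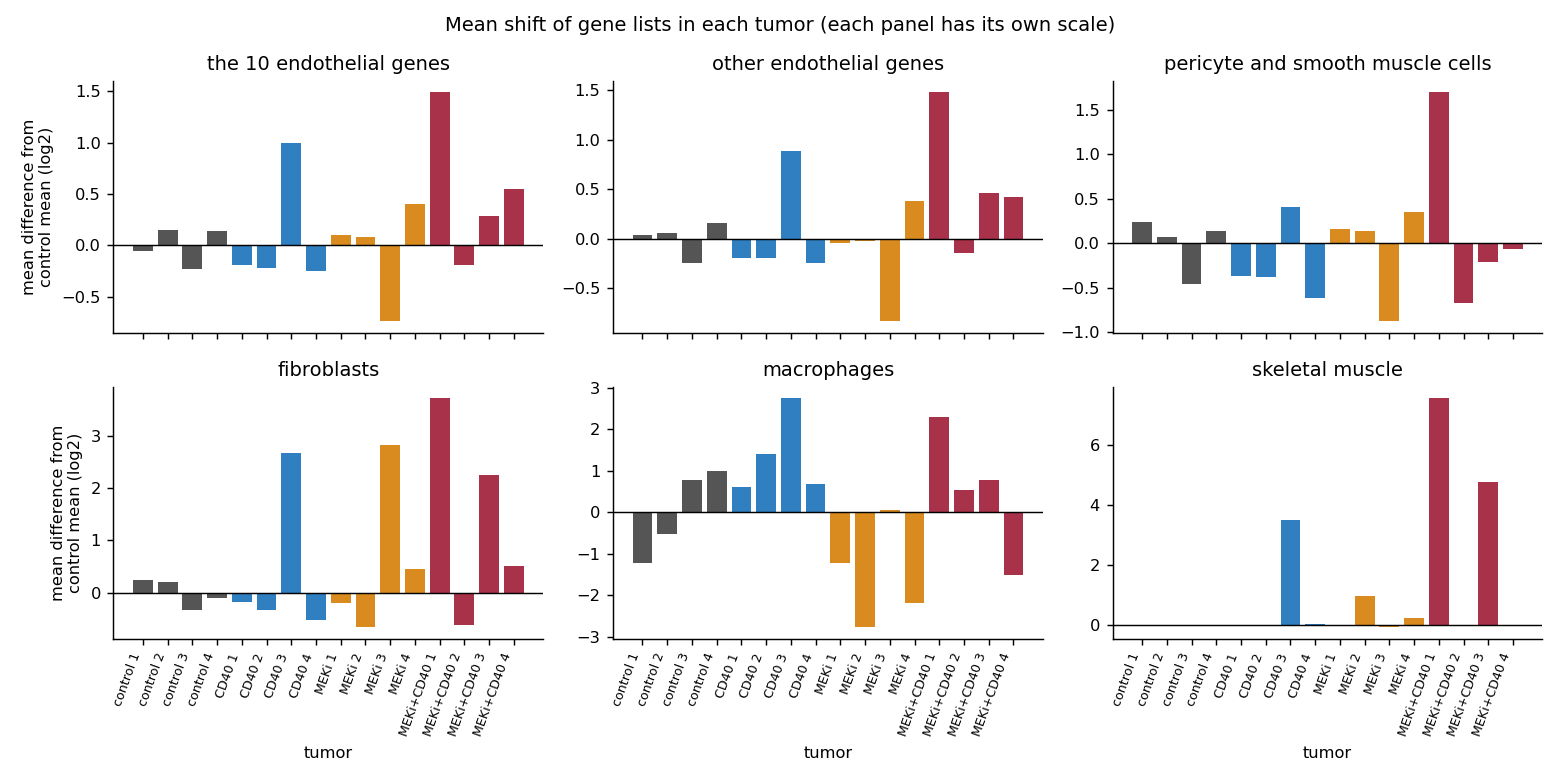
Mean difference from the control mean, in log2 units, of the 10 endothelial genes and 5 other gene lists in each of the 16 tumors, coloured by group and with a separate scale in each panel. The endothelial genes peak in MEKi+CD40 tumor 1 (1.49) and CD40 tumor 3 (0.99), which also hold muscle and fibroblast transcripts, and are lowest in MEKi tumor 3 (−0.74), where fibroblast transcripts are high and muscle transcripts are not.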

How the data were processed

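RNA of 16 tumors, 200 ng each, was labelled with the 3′ IVT Plus kit and hybridised to Affymetrix mouse arrays, 1 per tumor. The authors made the deposited log2 signals by RMA in Chipster, the RMA version being not given here. RMA brings all arrays to 1 distribution, so values are relative within an array, and array medians lay between 5.66 and 5.75. The deposited log2 values were used as given, without the 64 control probe sets. Of 45037 probe sets, 34945 carry 1 symbol, 932 several and 9160 none in the platform annotation. A gene was read by its brightest probe set, and levels of different probe sets were not compared. Where groups are said not to overlap, the share of all probe sets without overlap was not counted. Background was the 95th percentile of the means of 43 olfactory receptor probe sets, and 39.9% of probe sets lay below it.

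Groups came from the sample labels, which name no array batch. With limma 3.58.1 (R 4.3.3; lmFit, then eBayes), the 8 arrays of the groups compared entered a fit of their own, while for the interaction all 16 did. P-values were adjusted by Benjamini-Hochberg. Precision is limited by the number of arrays, the SE of a difference having a median of 0.103 to 0.119. The labels give each sample a tumor number of its own. The numbers of MEKi tumor 1 and of MEKi+CD40 tumors 1 and 2 lie far from those of the other samples. What the numbers stand for is not stated, and their part in the values was not tested. The 10 genes, the 15 other lists (154 distinct genes with the members, of which 150 were measured) and the tests were chosen with earlier results of these data known. Named genes were the 10 members, up to 3 of each other list by smallest unadjusted p, and the 8 most correlated with the members. Genes named beyond that rule (Acta1 and Myh4; Tyrp1 and Dct; Lyve1, Pf4, Ppbp, Gp9 and Rab27a; Cldn5, Esam and Robo4; Vegfa, Esm1, Igfbp3, Adamts1, Col4a2, Sele, Madcam1 and Prox1) were chosen after their values were seen. Alternatives were all arrays in 1 fit, a low signal filter, the replicate number as a block, median centring, cyclic loess, trend and robust options of eBayes, averaging a gene's probe sets, and leaving out each tumor. Leaving out the 3 tumors with muscle transcripts was added after seeing the data, and MEKi tumor 2 stayed in these fits. The fits were tested on simulated data. Promoters are from RefSeq on GRCm38.p6, and none is shown for Pecam1, Cdh5, Sox17 and Vwf. Figures were drawn by matplotlib 3.10.9 and tables by pandas 2.3.3, under Python 3.11.15.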

Additional observations from a re-analysis of the deposited data

Results flagged for a closer look

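In 5 of 40 sets of 4 tumors, 1 tumor lay far from the other 3, by Dixon's criterion. Chance marks about 1 group in 20, and the genes share the same tumors. CD40 tumor 3 was the high tumor for Pecam1 (7.43, the next 6.35), Cdh5 (7.80, the next 6.22), Tek (6.05, the next 4.26) and Sox17 (6.25, the next 4.27). It held skeletal muscle, fibroblast and macrophage transcripts at 3.49, 2.66 and 2.74 log2 units above the control mean. MEKi tumor 3 was the low tumor for Pecam1 (5.04, the next 6.61), and it held fibroblast transcripts at 2.82 and muscle transcripts at −0.06. The part of these tissues in the endothelial values was not tested.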

How the results depend on the processing

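The number of tumors and the signal over background limit these results, most of all for Tek, Tie1 and Sox17. No member probe set was called under any setting except without MEKi+CD40 tumor 2, where 2 were called against control (range 0 to 2 without single tumors), 2 against MEKi (0 to 2) and 1 against CD40 (0 to 1), all of Sox17. The median of the 10 genes changed sign in CD40 against control with the low signal filter (−0.02), without control tumor 3 (−0.05) or without CD40 tumor 3 (−0.24), in MEKi against control without control tumor 4 (0.05) or MEKi tumor 3 (0.18), and in the interaction without MEKi+CD40 tumor 1 (−0.07). The replicate numbers did not pair the samples, since 7 of 24 same-number pairs had a correlation of deviations over 0.1 (range −0.52 to 0.47) and 5 of 24 correlated best with their own number.

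Over all probe sets, the calls of MEKi+CD40 against control (4) became 4904 with all arrays in 1 fit, 2053 with the filter, 723 with trend and robust, and 0 with the replicate block, cyclic loess, median centring or without the tumors with muscle transcripts. Those against MEKi (518) became 4699, 1623 with the filter, and 0 with the block, loess, centring or without those tumors. Those against CD40 (2133) became 5309 with all arrays and 0 with the block. CD40 against control (0) gave 4 with trend and robust, and MEKi against control (0) gave 2 with cyclic loess. Without single tumors the calls ranged from 0 to 1 in CD40 against control, 0 to 2327 in MEKi+CD40 against control, 0 to 1454 against MEKi, 0 to 3508 against CD40 and 0 to 560 in the interaction. The highest was without MEKi+CD40 tumor 2, except against CD40, where it was without tumor 1, and except in CD40 against control, where it was without CD40 tumor 4.

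Of 60 differences of single genes, these changed sign. Without the tumors with muscle transcripts, CD40 against control was −0.25 for Pecam1, −0.28 for Cdh5 and −0.094 for Tie1, MEKi+CD40 against MEKi was −0.028 for Tie1, MEKi+CD40 against CD40 was −0.12 for Eng, and the interaction was 0.11 for Vwf and −0.16 for Eng. With the mean of all probe sets, Cdh5 in CD40 against control was −0.0062 and the Flt1 interaction 0.043. Without single tumors the ranges that crossed 0 were, in CD40 against control, −0.25 to 0.15 for Pecam1, −0.28 to 0.29 for Cdh5, −0.42 to 0.014 for Kdr, −0.27 to 0.011 for Flt1, −0.094 to 0.42 for Tie1 and −0.60 to 0.16 for Sox17. In MEKi against control they were −0.45 to 0.17 for Pecam1, −0.37 to 0.40 for Cdh5, −0.31 to 0.13 for Kdr, −0.20 to 0.34 for Flt1, −0.30 to 0.052 for Sox17 and −0.058 to 0.11 for Eng. In MEKi+CD40 against control Kdr ranged from −0.32 to 0.12. Against MEKi the ranges were −0.19 to 0.30 for Kdr, −0.014 to 0.45 for Tie1 and −0.13 to 0.48 for Vwf. Against CD40 they were −0.19 to 0.36 for Kdr, −0.0058 to 1.20 for Tek, −0.13 to 0.51 for Tie1 and −0.081 to 0.23 for Eng. In the interaction they were −0.065 to 0.53 for Kdr, −0.14 to 1.07 for Tek, −0.27 to 0.37 for Tie1, −0.42 to 0.19 for Vwf and −0.12 to 0.19 for Eng. The cause was not tested. The calls of Jag1, Flt4, Icam2 and Lcp1 kept their direction and were lost in 41 of 75 refits, among them the replicate block for all 5.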
